A study of Mus musculus with 8 samples.

Results

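The acute-phase plasma proteins described here are the products of 10 mouse genes: the serum amyloid A genes Saa1, Saa2 and Saa3, the orosomucoid genes Orm1, Orm2 and Orm3, the lipocalin gene Lcn2, the haptoglobin gene Hp, and the pentraxin genes Crp and Apcs. They were found on the array by gene name, or by the accession that the array gives for each probe. That gave 11 probes for the 10 genes, of 41174 probes for 27597 gene names in all, and all 11 were among the 33335 probes kept by the filter on dim spots. Saa1 had 2 probes and the other genes had 1 each.

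Liver RNA of ICR scid mice, 8 weeks old, was measured on 8 two-colour arrays, each of which compared 2 pools of RNA. The scid background lacks mature B and T cells, and it was shared by every group. The question in males and females given virus was which liver genes changed when Cux2, a transcription factor more highly expressed in female than in male mouse liver, was delivered by the adenovirus Adeno-Cux2, with the adenovirus Adeno-CMV as its control. The question in untreated mice was which genes differed between the sexes.

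Females labelled Adeno-Cux2 (8 mice) were compared with females given Adeno-CMV (7 mice) 5 days after the virus. Males given Adeno-Cux2 (12 mice) were compared with males given Adeno-CMV (13 mice) 5 days after the virus, and 11 males given Adeno-Cux2 with 11 given Adeno-CMV after 3 days. Untreated males (10 mice) were compared with untreated females (10 mice). Every group was split into 2 pools of 3 to 7 mice, with 1 array for each pair of pools. The spread between arrays is therefore between pools and not between mice. The numerator pool was red on array 1 and green on array 2. The series text counts 11 untreated females and 3 dye-swapped experiments, against 10 and 4 in the sample labels, and the stated purpose of the female arrays names males. The cells that took up the virus, and its promoter beyond the name Adeno-CMV, are not given in the sources used here.

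Acute-phase proteins are secreted into plasma, mainly by hepatocytes, in the hours and days after infection, injury or tissue damage. Interleukin-6 acts on them through STAT3, and interleukin-1 and tumour necrosis factor through NF-kB, with C/EBP factors at many of the promoters. The set differs between species: in mice serum amyloid A and serum amyloid P are the major reactants, while C-reactive protein, the main human reactant, responds little. Several of these genes are also expressed outside hepatocytes, among them Saa3 in macrophages and fat, and Lcn2 in neutrophils, where the protein is stored in granules.

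The arrays had median signals of 343 to 442 in green over local backgrounds of 289 to 315, and of 430 to 512 in red over 327 to 342.5. All 176 values of the 11 probes were well above background and 0 were saturated. The number of arrays limits the precision, since a value rests on 2 arrays. A first slide held the untreated pools and the males of day 5, and a second slide all other pools, so slide cannot be told apart from sex in the day 5 responses or from time in the male responses. Of 2 probes for Cux2 itself, A_51_P180463 was higher in males given Adeno-Cux2, at 0.60 ± 0.09 at day 5 and 0.49 ± 0.09 at day 3 on the log2 scale (adjusted p = 0.00408 and 0.00405). In the female pools labelled Adeno-Cux2 it was lower, at −0.61 ± 0.09 (adjusted p = 0.00434), and the other Cux2 probe had the same directions (0.31, 0.43 and −0.33). Whether either probe lies within the sequence carried by the virus is not given in the sources used here. The female groups are therefore called by their labels. Of the hepatocyte markers 7 were measured and all were well above background in all 16 pools.

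Between 4 and 9 of the 11 probes passed the test in each of the 4 comparisons. A probe was called where limma's moderated test gave a Benjamini-Hochberg adjusted p under 0.05 over all 33335 probes. Values below are log2 ratios, errors after ± are the model's standard errors with 2 arrays per comparison, and values printed in pairs are array 1 and array 2. In the female day 5 comparison 2 probes were called higher and 2 lower, where 11.2% and 6.20% of all probes were. At male day 5, 4 were higher and 1 lower, against 12.0% and 4.78% of all probes. At male day 3, 6 were higher and 3 lower, against 22.8% and 20.1% of all probes. Between untreated males and females 3 were higher and 3 lower in males, against 4.71% and 5.07%. The median of the 11 log2 ratios was −0.19 in females at day 5, 0.44 in males at day 5, 0.39 in males at day 3 and 0.02 in untreated mice, beside −0.00189, 0.00253, −0.00114 and −0.00215 over all probes. The range within each comparison was wide, from −1.21 to 0.66 in females at day 5, from −0.50 to 2.25 in males at day 5, from −1.86 to 2.59 in males at day 3 and from −2.16 to 0.70 in untreated mice. The genes did not move as 1 block: serum amyloid A and the lipocalin were higher with Adeno-Cux2 in males at day 3 while both pentraxins and Orm3 were lower.

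**Figure D1:**
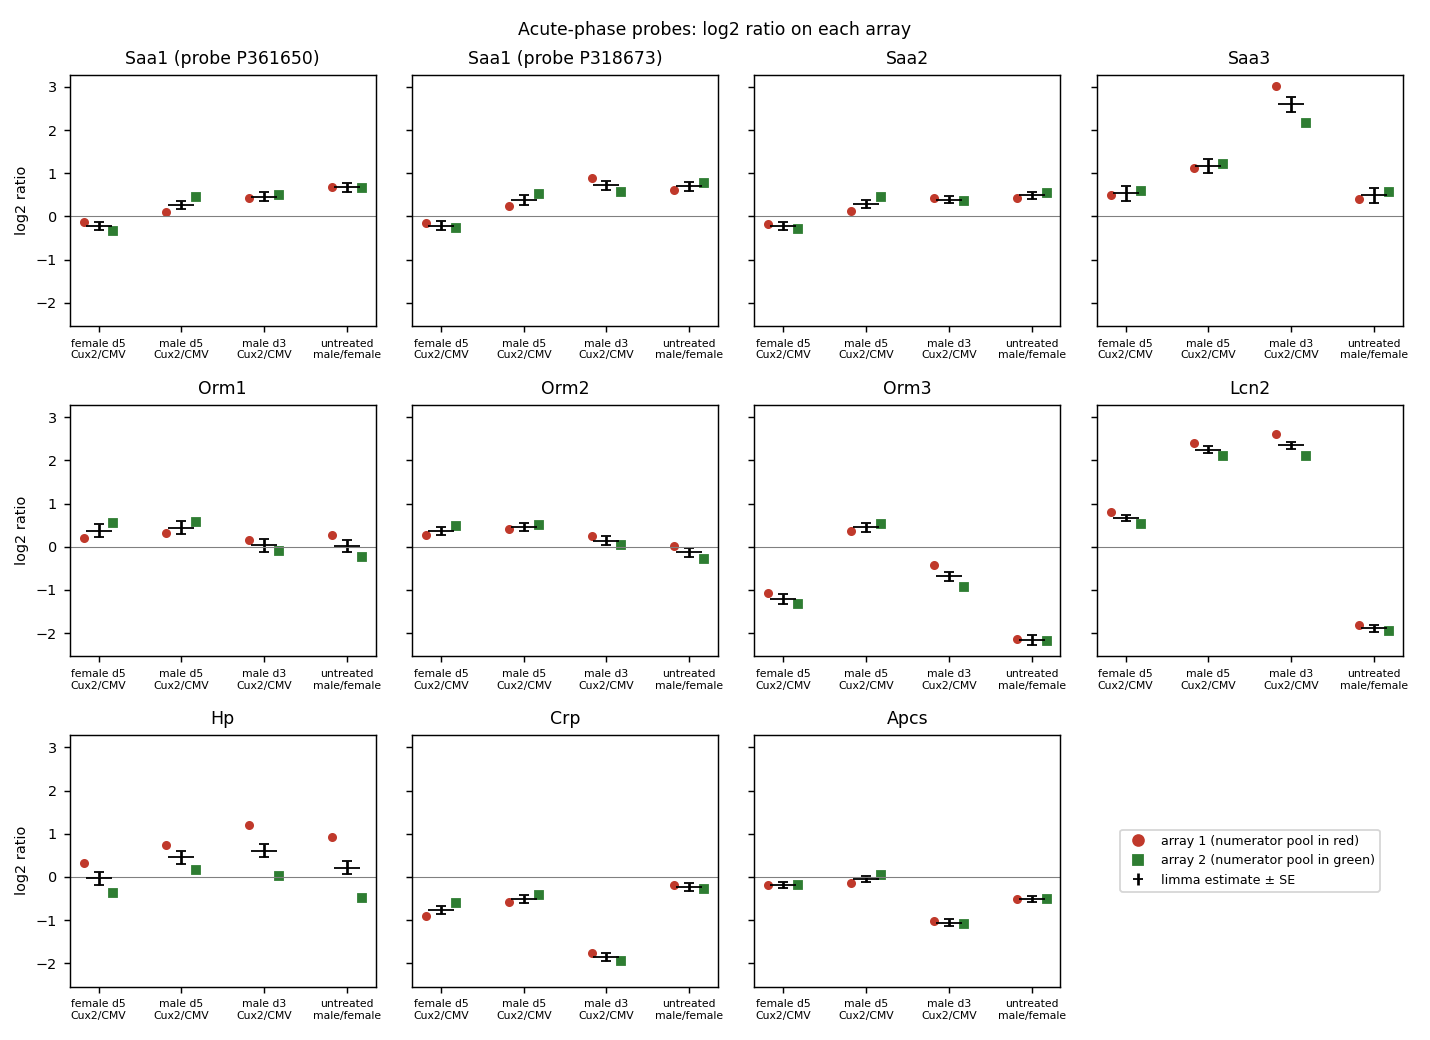
Log2 ratio (vertical axis) of each of the 11 probes in the 4 comparisons (horizontal axis: Adeno-Cux2 over Adeno-CMV in day 5 females, day 5 males and day 3 males, and untreated male over untreated female). Circles are array 1, squares array 2, and bars the limma estimate with its standard error. Saa3 and Lcn2 had the highest ratios at male day 3 (2.59 and 2.35), Crp and Apcs were lower there (−1.86 and −1.06), and the 2 arrays of Hp lay apart in every comparison.

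Saa1 and Saa2 encode the serum amyloid A proteins that hepatocytes secrete on high-density lipoprotein, and the 2 genes lie beside each other on chromosome 7. The Saa1 probes map to chr7:46608742-46608801 and chr7:46608839-46609311 on the minus strand, and the Saa2 probe to chr7:46622207-46622266 on the plus strand (mm8, per the array annotation). Their promoters, the 250 bases before the transcript start that the RefSeq promoter table uses on GRCm38.p6 (chr7:46742981-46743230 on the minus strand for Saa1, and chr7:46751583-46751832 on the plus strand for Saa2), are shown because the 2 genes had ratios of the same sign in every comparison:
Saa1: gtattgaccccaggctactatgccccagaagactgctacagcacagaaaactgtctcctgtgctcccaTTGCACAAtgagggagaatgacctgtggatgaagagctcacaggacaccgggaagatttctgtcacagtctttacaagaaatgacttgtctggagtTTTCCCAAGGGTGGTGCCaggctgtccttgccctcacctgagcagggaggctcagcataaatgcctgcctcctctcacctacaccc
Saa2: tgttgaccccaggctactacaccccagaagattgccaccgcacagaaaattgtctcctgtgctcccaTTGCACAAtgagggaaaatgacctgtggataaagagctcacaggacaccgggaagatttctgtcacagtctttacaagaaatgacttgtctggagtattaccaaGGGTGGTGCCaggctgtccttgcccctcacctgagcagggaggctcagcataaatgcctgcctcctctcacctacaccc
The RefSeq gene record of Saa1 begins further upstream, so that 201 of its 250 bases lie within the listed gene, and 0 of those of Saa2. The 2 promoters were identical at 238 of 251 aligned positions (94.8%). Capitals mark matches to 2 short motifs on either strand: for NF-kB 3 bases G, any 5 bases and 2 bases C (or, on the other strand, 2 bases G, any 5 and 3 bases C), which 45.8% of 32851 mouse promoters of that length hold, and for C/EBP TTNNGNAA (TTNCNNAA on the other strand), which 36.8% hold. In Saa1 a C/EBP match, TTTCCCAA, runs straight into the NF-kB match, GGGTGGTGCC, and in Saa2 only the NF-kB letters are matched at that place. A match is a description of the letters and not a binding site.

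Saa1 and Saa2 were higher in males given Adeno-Cux2 at day 3 and higher in untreated males than in untreated females. The ratios of Saa1 at male day 3 were 0.43 and 0.49 for probe A_51_P361650 and 0.89 and 0.56 for probe A_52_P318673. The Saa2 ratios there were 0.43 and 0.36. All 6 array values lay above 0, and the estimates were 0.46 ± 0.10, 0.73 ± 0.11 and 0.39 ± 0.09 (limma adjusted p = 0.00806, 0.00168 and 0.0119). The higher Saa1 value, a 1.65-fold difference, was called under all alternatives tried. Without array 1 or array 2 of that comparison the other Saa1 probe (adjusted p = 0.0803 and 0.103) and Saa2 (0.179 and 0.0612) were no longer called.

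At day 5 the 3 probes pointed in opposite directions in the 2 sexes, with none called. In the female pools labelled Adeno-Cux2 the Saa1 ratios were −0.12 and −0.33 for probe A_51_P361650 and −0.16 and −0.27 for probe A_52_P318673, and the Saa2 ratios −0.17 and −0.29. In males at day 5 they were 0.10 and 0.44, 0.25 and 0.52, and 0.12 and 0.46 in the same order. The estimates were −0.23 ± 0.10, −0.21 ± 0.11 and −0.23 ± 0.09 in females and 0.27 ± 0.10, 0.38 ± 0.11 and 0.29 ± 0.09 in males. The female response minus the male response was −0.50 ± 0.14, −0.60 ± 0.15 and −0.51 ± 0.13, with adjusted p = 0.247, 0.207 and 0.205, so that the difference between the sexes did not pass the test either.

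Between untreated pools the Saa1 ratios of male over female were 0.69 and 0.66 for probe A_51_P361650 and 0.62 and 0.79 for probe A_52_P318673. The Saa2 ratios were 0.43 and 0.54. Males were higher on both arrays of all 3 probes, at 0.67 ± 0.10, 0.70 ± 0.11 and 0.49 ± 0.09 (1.59-fold, 1.63-fold and 1.40-fold; adjusted p = 0.00831, 0.0105 and 0.0216). These calls were lost with the scanner software's own log ratios (0.0561, 0.0560 and 0.0848), in a fit to these arrays alone (0.0595, 0.0620 and 0.139) and without array 1 (0.136, 0.0813 and 0.180). Without array 2 the call of Saa1 A_52_P318673 (0.0592) and of Saa2 (0.0820) was lost, and that of Saa2 also without background subtraction (0.0527) and with median centring (0.0589).

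Whether the 3 probes tell Saa1 from Saa2 could not be checked, since probe sequences were not used here. The genes are near copies, and the reference table lists each name as a synonym of the other's. The values of the 3 probes are therefore given as those of the pair of genes.

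Levels are given as log2 channel signals of the same probe, and no probe's level is set against another's. Pools of different comparisons were not hybridised against each other, so their order rests on the scaling between arrays. Where that order crosses the first and second slides, it cannot be told apart from slide. This holds for every order of pools given below, also for the marker sums. For Saa1 A_52_P318673 the female day 5 pools had 13.30 and 13.41 with Adeno-Cux2 on the label, against 13.57 and 13.57 with Adeno-CMV. Male day 5 pools had 13.68 and 14.09 with Adeno-Cux2, against 13.43 and 13.57 with Adeno-CMV. The male day 3 pools had 16.56 and 16.61 with Adeno-Cux2, against 15.72 and 15.99 with Adeno-CMV, and the untreated pools 15.31 and 15.39 in males, against 14.52 and 14.77 in females. The order of this probe ran from the male day 3 pools down through the untreated pools to the day 5 pools, and each of these 3 sets lay apart from the next. Among the day 5 groups the female and the male Adeno-CMV pools, with means of 13.57 and 13.50, differed by less than the spread of the male pools (SD 0.10, n = 2).

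Saa3 encodes a serum amyloid A protein made by macrophages and adipocytes as well as by stimulated hepatocytes. Its probe lies at chr7:46580703-46580762 on the minus strand (mm8), and the array annotation lists an Saa1 transcript beside Saa3 for it. The Saa3 ratios were 0.49 and 0.59 in day 5 females, 1.12 and 1.22 in day 5 males, 3.02 and 2.17 in day 3 males and 0.41 and 0.58 in untreated mice. All 8 array values lay above 0. The estimate was 2.59 ± 0.17 at male day 3, a 6.04-fold difference (adjusted p = 5.67e-05), and 1.17 ± 0.17 at male day 5, a 2.25-fold difference (adjusted p = 0.00421). The male day 5 call was lost without array 1 (0.0644) or array 2 (0.135) of that comparison.

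In females at day 5 the Saa3 estimate was 0.54 ± 0.17 (adjusted p = 0.0783) and in untreated mice 0.49 ± 0.17 (adjusted p = 0.122). The 2 arrays of male day 3 differed more than those of the other comparisons, and the spread is shared by all 4: without either of them the female value had an adjusted p = 0.00521 and the untreated value one of 0.0122. Fitted on its own arrays the female value had an adjusted p = 0.0188.

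The Saa3 signals were 13.82 and 13.95 in the female day 5 pools labelled Adeno-Cux2, against 13.23 and 13.46 with Adeno-CMV. Male day 5 pools had 13.82 and 13.88 with Adeno-Cux2, against 12.66 and 12.70 with Adeno-CMV. Male day 3 pools had 16.93 and 17.07 with Adeno-Cux2, against 14.04 and 14.76 with Adeno-CMV. The untreated pools had 13.20 and 13.31 in males, against 12.74 and 12.79 in females. The groups did not overlap within any pair, and the male day 3 pools given Adeno-Cux2 stood above all other pools.

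The orosomucoids, or alpha-1-acid glycoproteins, are plasma glycoproteins that bind basic drugs and lipids. Orm1 and Orm2 are the forms with high expression in mouse liver. Their probes lie on chromosome 4, plus strand, at chr4:62831810-62832417 for Orm1, chr4:62850306-62850365 for Orm2 and chr4:62844237-62845720 for Orm3 (mm8). The promoters of Orm2 and Orm3 (RefSeq, GRCm38.p6, chr4:63362199-63362448 on the plus strand for Orm2, and chr4:63355908-63356157 on the plus strand for Orm3) are shown because these neighbouring genes differed in their responses:
Orm2: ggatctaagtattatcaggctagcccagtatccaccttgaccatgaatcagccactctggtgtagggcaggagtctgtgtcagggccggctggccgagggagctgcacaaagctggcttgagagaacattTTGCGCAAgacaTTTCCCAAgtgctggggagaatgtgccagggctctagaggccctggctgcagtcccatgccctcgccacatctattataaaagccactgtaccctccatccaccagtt
Orm3: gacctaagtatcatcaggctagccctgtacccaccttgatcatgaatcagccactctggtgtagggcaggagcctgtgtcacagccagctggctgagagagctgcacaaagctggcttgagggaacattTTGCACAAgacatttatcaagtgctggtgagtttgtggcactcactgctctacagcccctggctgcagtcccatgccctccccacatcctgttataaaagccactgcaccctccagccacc
The stretches were taken as above, and 89 bases of that of Orm3 lie within its listed gene, against 0 of that of Orm2. The 2 were identical at 218 of 255 aligned positions (85.5%). Capitals mark C/EBP letters as above. Orm2 holds 2 matches, TTGCGCAA and TTTCCCAA, and Orm3 holds 1, TTGCACAA, at the place of the first. Orm1 is named without a promoter.

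Orm3 differed more than Orm1 and Orm2 in females at day 5, males at day 3 and untreated mice, but not in males at day 5, and its direction changed between the groups given Adeno-Cux2. The Orm3 ratios were −1.08 and −1.33 in day 5 females, 0.37 and 0.52 in day 5 males, −0.44 and −0.93 in day 3 males and −2.15 and −2.18 in untreated mice. It was lower in the female pools labelled Adeno-Cux2 by 2.31-fold (−1.21 ± 0.11, adjusted p = 0.000803), higher in males at day 5 by 1.36-fold (0.45 ± 0.11, adjusted p = 0.0338) and lower in males at day 3 by 1.61-fold (−0.69 ± 0.11, adjusted p = 0.00237). In untreated males it was 4.48-fold lower than in untreated females (−2.16 ± 0.11, adjusted p = 0.000171), the largest difference of the 11 probes in that comparison. The direction in females labelled Adeno-Cux2 was that of untreated males over females. The size of the Orm3 ratios depended on the processing. Across the alternatives tried the estimates ran from −1.49 to −0.71 in females at day 5 and from −2.38 to −1.61 in untreated mice. At male day 3 they ran from −1.05 to −0.39.

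The Orm3 signals in the untreated pools were 8.99 and 9.02 in males, against 11.13 and 11.21 in females. In females at day 5 they were 7.63 and 8.34 with Adeno-Cux2 on the label, against 8.97 and 9.42 with Adeno-CMV. In males they were 8.27 and 8.42 with Adeno-Cux2, against 7.90 and 7.90 with Adeno-CMV at day 5, and 7.86 and 8.16, against 8.60 and 8.79 at day 3. The untreated females stood above all other pools. Among the 4 lowest groups the ranges of the female pools labelled Adeno-Cux2 overlapped those of male day 3 Adeno-Cux2, of male day 5 Adeno-Cux2 and of male day 5 Adeno-CMV. For Orm3 the male day 5 call was lost without background subtraction (0.23, adjusted p = 0.112), from the scanner software's ratios (0.114), with median centring (0.0541) and without array 1 (0.0820) or array 2 (0.548), and the male day 3 call without array 2 (0.0567).

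Orm1 and Orm2 had small differences, all at or under 1.37-fold. The Orm2 ratios were 0.26 and 0.47 in day 5 females, 0.40 and 0.50 in day 5 males, 0.24 and 0.04 in day 3 males and 0.02 and −0.28 in untreated mice. It was called higher with Adeno-Cux2 at day 5, at 0.37 ± 0.10 in females (adjusted p = 0.0459) and 0.45 ± 0.10 in males (adjusted p = 0.0219). The Orm1 ratios were 0.19 and 0.55 in day 5 females, 0.32 and 0.56 in day 5 males, 0.16 and −0.09 in day 3 males and 0.26 and −0.23 in untreated mice. Orm1 was not called in any comparison (adjusted p = 0.139, 0.0930, 0.882 and 0.961 in that order), and its male day 5 value had an adjusted p of 0.0421 without either untreated array and 0.00429 on its own arrays.

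The female day 5 call of Orm2 was marginal: it was lost without background subtraction (adjusted p = 0.0852), from the scanner software's ratios (0.0839), with median centring (0.141), on its own arrays (0.0649), without either male day 5 array (0.0849), without either male day 3 array (0.0622) and without female array 1 (0.0874) or array 2 (0.488). In males the Orm2 call was lost with median centring (0.0837) and without array 1 (0.155) or array 2 (0.382). A transcript shared between Orm1, Orm2 and Orm3 probes could not be checked, since the probe sequences were not used here.

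Lcn2 encodes lipocalin 2, which binds bacterial iron carriers and withholds iron from microbes. Its probe lies at chr2:32207526-32207770 on the minus strand (mm8). The Lcn2 ratios were 0.81 and 0.52 in day 5 females, 2.40 and 2.09 in day 5 males, 2.61 and 2.09 in day 3 males and −1.82 and −1.96 in untreated mice. Lcn2 was higher with Adeno-Cux2 by 1.58-fold in the female pools so labelled (0.66 ± 0.08, adjusted p = 0.00221), by 4.75-fold in males at day 5 (2.25 ± 0.08, adjusted p = 5.48e-05) and by 5.10-fold in males at day 3 (2.35 ± 0.08, adjusted p = 1.11e-05). In untreated males it was 3.70-fold lower than in untreated females (−1.89 ± 0.08, adjusted p = 0.000108). All 4 calls held under every alternative tried.

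The Lcn2 signals in the female day 5 pools were 14.42 and 14.55 with Adeno-Cux2 on the label, against 13.74 and 13.90 with Adeno-CMV. Male day 5 pools had 14.17 and 14.32 with Adeno-Cux2, against 11.77 and 12.23 with Adeno-CMV. Male day 3 pools had 15.10 and 15.35 with Adeno-Cux2, against 12.74 and 13.01 with Adeno-CMV. The untreated pools had 10.72 and 10.73 in males, against 12.54 and 12.68 in females. The order was the 3 Adeno-Cux2 groups, then female Adeno-CMV, male day 3 Adeno-CMV, untreated females, male day 5 Adeno-CMV and untreated males, with no overlap between neighbouring groups.

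The sum of 12 neutrophil markers differed in the same direction as Lcn2 within each comparison, but the pool groups were not in the same order. Female Adeno-CMV pools had a higher sum than male day 3 pools given Adeno-Cux2 (27686 to 32667, against 21205 to 24267). Lcn2 was lower in those female pools (13.74 and 13.90, against 15.10 and 15.35). Of the 12 neutrophil markers, 10 (83.3%) were called higher with Adeno-Cux2 in each of the 3 virus comparisons. Of all probes 11.2% were in day 5 females, 12.0% in day 5 males and 22.8% in day 3 males. In untreated males 4 of the 12 (33.3%) were called lower, beside 5.07% of all probes. The summed signal of the 12 markers was 90098 to 111163 in female pools labelled Adeno-Cux2, against 27686 to 32667 with Adeno-CMV. In males at day 5 it was 55486 to 59379 with Adeno-Cux2, against 7055 to 8713 with Adeno-CMV. In males at day 3 the sum was 21205 to 24267 with Adeno-Cux2, against 6649 to 9394 with Adeno-CMV, and in untreated pools 3306 to 3589 in males, against 5292 to 5312 in females. S100a8, a calcium-binding protein of neutrophils, had log2 ratios of 1.86 in females at day 5, 3.30 in males at day 5, 1.60 in males at day 3 and −0.93 in untreated mice. No defining neutrophil marker was at 0: 8 of the 12 were well above background in all 16 pools, and the rest in 13 to 15. The part of neutrophils in the Lcn2 result was not tested, and in whole liver more cells of a type and more RNA per cell cannot be told apart.

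**Figure D2:**
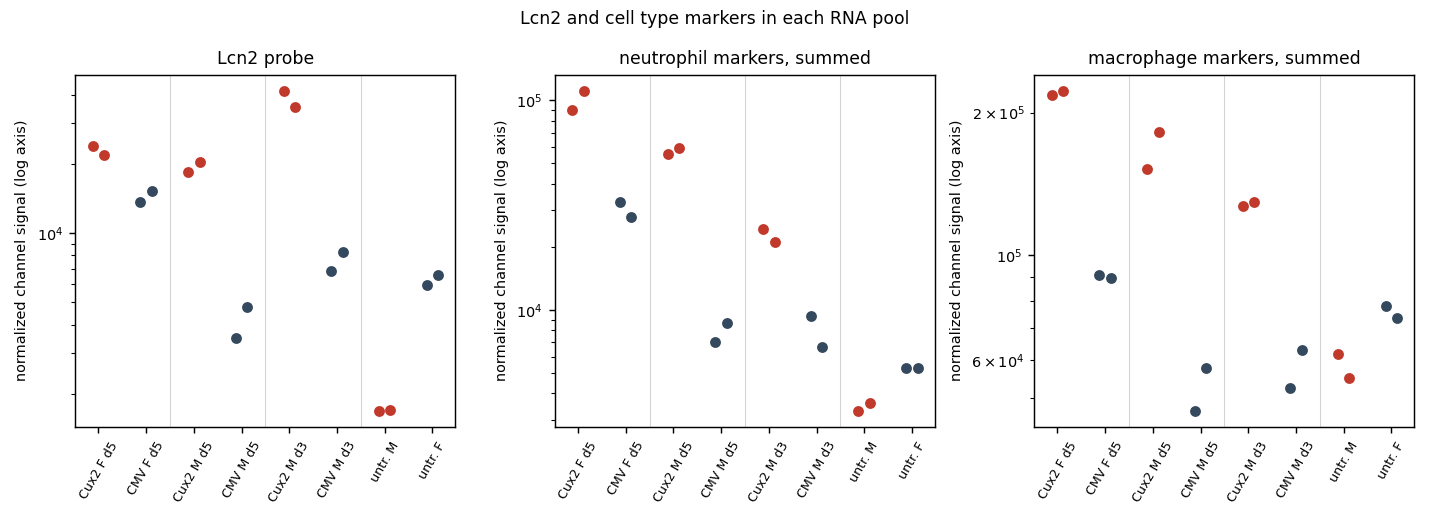
Normalized channel signal (log axis) in each of the 16 pools for the Lcn2 probe, the sum of 12 neutrophil markers and the sum of 11 macrophage markers. Red points are Adeno-Cux2 or untreated male pools and dark points their Adeno-CMV or untreated female partners, 2 pools per group. Lcn2 was highest in male day 3 pools given Adeno-Cux2, while both marker sums were highest in female day 5 pools labelled Adeno-Cux2.

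Macrophages, which also express Saa3, had 11 of 12 markers called higher in males at day 5 (91.7%, beside 12.0% of all probes). In females at day 5, 8 were higher (66.7%, beside 11.2%). In males at day 3, 5 were higher and 6 lower, where 22.8% and 20.1% of all probes were. In untreated males 5 of the 12 (41.7%) were called lower, beside 5.07% of all probes. The summed signal of the 11 macrophage markers measured on every array was 218107 to 222693 in female pools labelled Adeno-Cux2, against 89466 to 90917 with Adeno-CMV. It was 152340 to 182331 in males given Adeno-Cux2 at day 5, against 46878 to 57666 with Adeno-CMV, and 126692 to 129678 at day 3, against 52446 to 62887. Untreated pools had 54979 to 61728 in males, against 73598 to 78117 in females. At male day 3 the markers of resident liver macrophages Clec4f and Vsig4 were lower (−2.23 and −1.90) and Itgam, an integrin of infiltrating myeloid cells, and Lyz1, a lysozyme, were higher (2.04 and 1.64). Of the adipocyte markers 6 were measured, of which Plin1 was well above background in 3 of 16 pools. At male day 3, 2 of the 6 were called higher (33.3%, beside 22.8% of all probes), the lipid-droplet gene Cidec (2.40) and the fatty-acid-binding gene Fabp4 (0.66). The median over the 6 was 0.09, and Adipoq and Plin1 had 0.14 and 0.03 and were not called. The adipocyte sum was 15259 to 15349 in males given Adeno-Cux2 at day 3, against 8221 to 8509 with Adeno-CMV. The part of these cells in the Saa3 result was not tested.

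Hp encodes haptoglobin, which binds free haemoglobin in plasma. Its probe lies at chr8:112464401-112464460 on the minus strand (mm8). The Hp ratios were 0.31 and −0.38 in day 5 females, 0.74 and 0.16 in day 5 males, 1.20 and 0.01 in day 3 males and 0.92 and −0.49 in untreated mice. Array 1, with the numerator pool in red, was the higher in all 4 comparisons, and the signs of the 2 arrays differed in 2 of them. The dye term takes up this gap: Hp was called higher at male day 3 only (0.61 ± 0.14, 1.52-fold, adjusted p = 0.0135), and that call was lost without the dye term (0.234), on its own arrays (0.106) and without array 1 (0.194) or array 2 (0.0624). The male day 5 value of 0.45 ± 0.14 (adjusted p = 0.0841) passed the threshold without either untreated array (0.0386) and on its own arrays (0.0305).

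The pentraxins are ring-shaped plasma proteins that bind to damaged cells and microbes. Crp encodes C-reactive protein and Apcs serum amyloid P component, the chief acute-phase pentraxin of the mouse. The probes lie on chromosome 1 at chr1:174535996-174536055 on the plus strand for Crp and chr1:174731503-174731562 on the minus strand for Apcs (mm8). Their promoters (RefSeq, GRCm38.p6, chr1:172697806-172698055 on the plus strand for Crp, and chr1:172895055-172895304 on the minus strand for Apcs) are shown because both genes were lower in males at day 3, where serum amyloid A was higher:
Crp: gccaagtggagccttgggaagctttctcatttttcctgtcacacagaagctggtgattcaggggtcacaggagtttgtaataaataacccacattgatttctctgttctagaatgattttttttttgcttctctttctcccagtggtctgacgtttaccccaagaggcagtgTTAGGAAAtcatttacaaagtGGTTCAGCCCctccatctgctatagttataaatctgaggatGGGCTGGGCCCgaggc
Apcs: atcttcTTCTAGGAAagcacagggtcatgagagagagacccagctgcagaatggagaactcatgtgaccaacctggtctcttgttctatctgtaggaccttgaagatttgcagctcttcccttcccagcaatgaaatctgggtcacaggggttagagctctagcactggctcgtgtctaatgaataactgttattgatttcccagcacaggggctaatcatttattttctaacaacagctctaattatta
Capitals in Crp mark 3 matches to the NF-kB letters, of which 2 overlap, and 1 to the C/EBP letters. Capitals in Apcs mark 1 match to the STAT letters TTCNNNGAA, which read the same on both strands and occur in 7.0% of the 32851 promoters.

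Crp was lower with Adeno-Cux2 in all 3 virus comparisons. The Crp ratios were −0.90 and −0.61 in day 5 females, −0.59 and −0.42 in day 5 males, −1.77 and −1.94 in day 3 males and −0.18 and −0.27 in untreated mice. The estimates were −0.76 ± 0.09 in the female pools labelled Adeno-Cux2 (1.69-fold lower, adjusted p = 0.00267), −0.50 ± 0.09 in males at day 5 (1.42-fold lower, adjusted p = 0.0121) and −1.86 ± 0.09 in males at day 3 (3.62-fold lower, adjusted p = 2.51e-05). In untreated mice the value was −0.23 ± 0.09 (adjusted p = 0.180). The male day 5 call was lost from the scanner software's ratios (0.0517) and without array 1 (0.263) or array 2 (0.130), and the female call without array 1 (0.0581), while the male day 3 call held under every alternative.

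Apcs was lower in males given Adeno-Cux2 at day 3 and in untreated males. The Apcs ratios were −0.20 and −0.19 in day 5 females, −0.14 and 0.04 in day 5 males, −1.01 and −1.10 in day 3 males and −0.52 and −0.51 in untreated mice. At male day 3 it was 2.08-fold lower (−1.06 ± 0.07, adjusted p = 5.88e-05) and in untreated males 1.43-fold lower than in females (−0.52 ± 0.07, adjusted p = 0.00684). The untreated call was lost without array 1 (0.0836) and on its own arrays (0.113). At day 5 the values were −0.19 ± 0.07 in females and −0.05 ± 0.07 in males (adjusted p = 0.112 and 0.714).

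The Crp signals in males at day 3 were 11.94 and 12.12 with Adeno-Cux2, against 13.88 and 13.89 with Adeno-CMV. In females at day 5 they were 12.76 and 13.12 with Adeno-Cux2 on the label, against 13.67 and 13.73 with Adeno-CMV, and in males at day 5 13.12 and 13.31, against 13.71 and 13.73. The untreated pools had 14.26 and 14.44 in males, against 14.53 and 14.62 in females. The 4 untreated pools stood above all pools given a virus, and every pool with Adeno-Cux2 on its label stood below every pool given Adeno-CMV. The Crp ranges of the 2 Adeno-CMV groups at day 5 overlapped.

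For Apcs the male day 3 signals were 12.92 and 13.01 with Adeno-Cux2, against 14.02 and 14.02 with Adeno-CMV. The day 5 signals were 13.28 and 13.29 in the female pools labelled Adeno-Cux2, against 13.48 and 13.49 with Adeno-CMV, and 12.97 and 12.99 in males given Adeno-Cux2, against 12.95 and 13.12 with Adeno-CMV. In untreated pools they were 14.06 and 14.10 in males, against 14.57 and 14.62 in females. The 2 male groups of day 5 and the male day 3 group given Adeno-Cux2 overlapped at the low end of the order, and the untreated females stood above all others. Of the 7 hepatocyte markers measured, 5 were called lower at male day 3 (71.4%, beside 20.1% of all probes), with a median of −0.33. Among them were Cyp2e1, a drug-metabolizing enzyme (−2.49), and Tdo2, a tryptophan-degrading enzyme (−1.56). The summed signal of the 7 markers there was 457016 to 730379 with Adeno-Cux2, against 862520 to 952424 with Adeno-CMV. At day 5, where Crp was also called lower, 2 were higher and 2 lower in females (28.6% each, beside 11.2% and 6.20% of all probes, median 0.18). In males 2 were higher and 1 lower (28.6% and 14.3%, beside 12.0% and 4.78%, median 0.36). The sums at day 5 overlapped. They were 713422 to 808663 in female pools labelled Adeno-Cux2, against 598642 to 849366 with Adeno-CMV. In males they were 785010 to 985344 with Adeno-Cux2, against 614883 to 936747 with Adeno-CMV. In every group the red pool had the higher sum, so these ranges mix the 2 dyes. Within 1 dye the male sums were higher with Adeno-Cux2 (985344 against 936747 in red, 785010 against 614883 in green). The female sums were lower with Adeno-Cux2 on the label in red (808663 against 849366) and higher in green (713422 against 598642). The part of hepatocyte share in the pentraxin results was not tested.

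**Figure D3:**
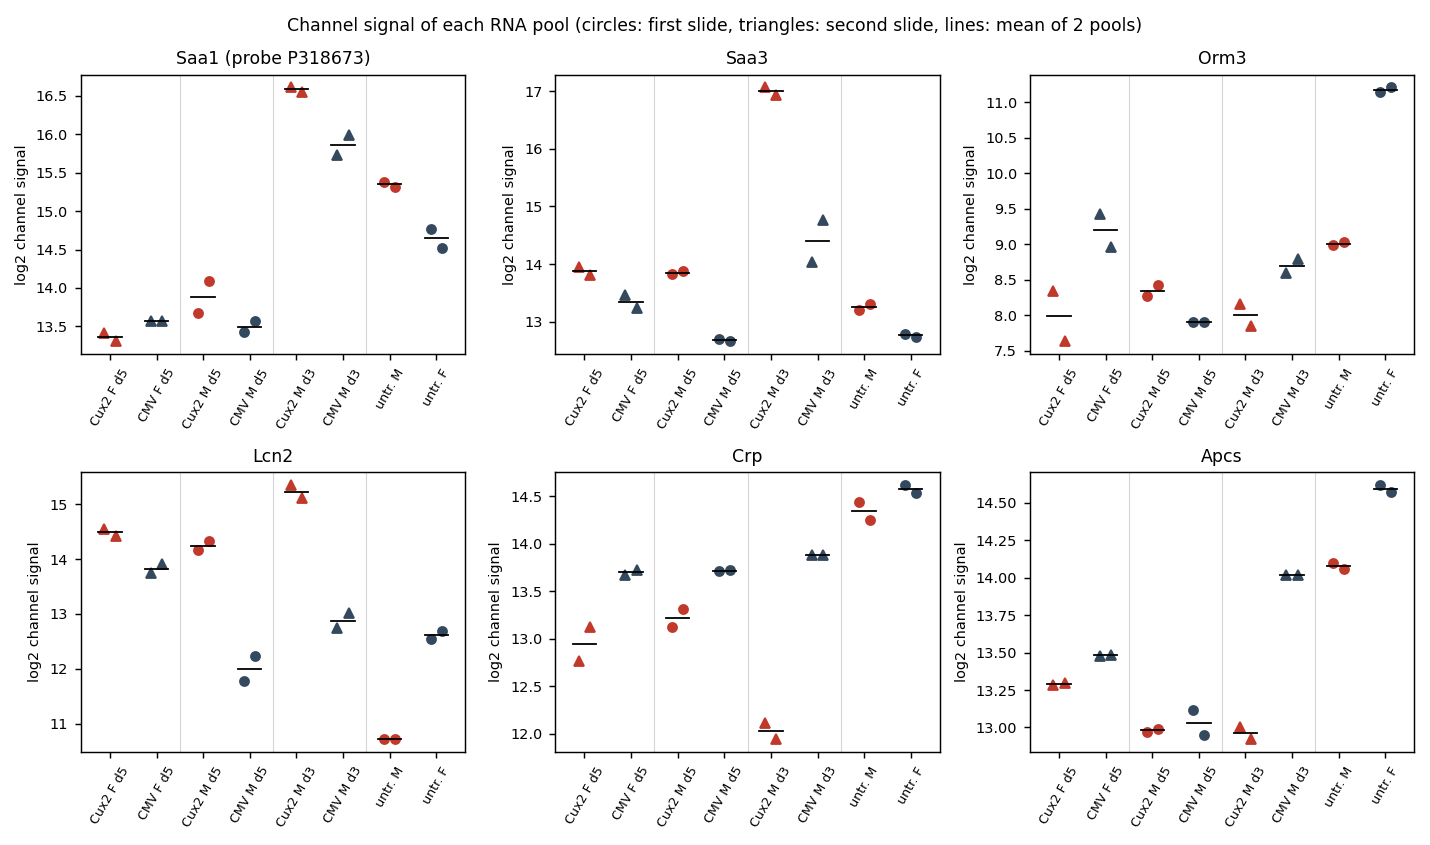
Log2 channel signal (vertical axis) of 6 probes in the 8 pool groups (horizontal axis), with 2 pools per group and a line at their mean. Circles are arrays of the first slide and triangles of the second, and red points are Adeno-Cux2 or untreated male pools. Saa3 and Lcn2 were highest and Crp lowest in male day 3 pools given Adeno-Cux2, and Orm3 and Apcs were highest in untreated females.

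The responses were also tested against each other. In the female response minus the male response at day 5, all 11 estimates lay below 0, with a median of −0.50 beside −0.0113 over all probes, and 2 were called lower, where 0.147% of all probes were. The 2 were Orm3 (−1.65 ± 0.15, adjusted p = 0.0259) and Lcn2 (−1.58 ± 0.11, adjusted p = 0.0130). By limma 0 were called higher (0 also at an unadjusted p under 0.05), where 0.0540% of all probes were. The calls of Orm3 and Lcn2 were lost without background subtraction (0.143 and 0.0676), from the scanner software's ratios (0.239 and 0.208), without male day 5 array 1 (0.202 and 0.245) and without male day 5 array 2 (0.232 and 0.169), and that of Orm3 without female array 1 (0.0559) or array 2 (0.0762). The estimates themselves stayed between −1.91 and −0.94 for Orm3 and between −1.66 and −1.53 for Lcn2 in those settings. Few probes of any kind passed in the first 2 of these settings. Of 33335, 1 was called lower without background subtraction and 0 by limma from the scanner software's ratios (1674 at an unadjusted p under 0.05). Without male day 5 array 1 or array 2 the calls over all probes were lost as well, so those losses were not particular to Orm3 and Lcn2.

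In the male response at day 5 minus that at day 3, 3 probes were called higher and 1 lower, where 7.25% and 4.81% of all probes were. Saa3 had a smaller response at day 5, with a difference of −1.42 ± 0.24 (adjusted p = 0.0143). Crp (a difference of 1.35 ± 0.13, adjusted p = 0.00337), Apcs (1.01 ± 0.10, adjusted p = 0.00342) and Orm3 (1.13 ± 0.15, adjusted p = 0.00745) had ratios nearer to or above 0 at day 5 and further below 0 at day 3. Lcn2 differed by −0.10 ± 0.11 (adjusted p = 0.623). Without male day 5 array 2 all 4 calls were lost (0.0969 for Saa3, 0.0582 for Crp, 0.0582 for Apcs and 0.0814 for Orm3). The Saa3 call was also lost without male day 5 array 1 (0.146) and from the scanner software's ratios (0.0551), and the Orm3 call without male day 3 array 2 (0.0517).

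The control virus was set against no virus through the single channels of the slide that held both. Adeno-CMV males at day 5 had lower signals than untreated males for 8 of the 11 probes and a higher one for 1, where 15.6% of 33317 probes were called lower and 9.91% higher. Saa1 was lower by 4.08-fold and 3.61-fold by its 2 probes (−2.03 ± 0.14 and −1.85 ± 0.15, adjusted p = 5.58e-06 and 1.30e-05) and Saa2 by 3.22-fold (−1.69 ± 0.14, adjusted p = 1.42e-05). The orosomucoids were lower by 2.45-fold for Orm1, 2.66-fold for Orm2 and 2.15-fold for Orm3 (adjusted p = 0.000409, 1.72e-05 and 0.00237). Apcs was 2.06-fold lower and Crp 1.55-fold lower (adjusted p = 7.80e-06 and 0.00482). Lcn2 was 2.42-fold higher (1.28 ± 0.12, adjusted p = 3.45e-05), while Saa3 (−0.58 ± 0.21) and Hp (−0.16 ± 0.17) were not called (adjusted p = 0.0740 and 0.544).

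These pools were not hybridised against each other, so the values depend on the scaling between arrays. Without the Aquantile step 8372 probes were called higher and 1123 lower, against 3301 and 5208 with it, and the median difference over all probes was 0.15 in place of −0.04. The members' counts were then 6 lower and 1 higher, with Orm3 (−0.66, adjusted p = 0.0616) and Crp (−0.37, adjusted p = 0.0660) no longer called, and Lcn2 at 1.69 and the first Saa1 probe at −1.71. The Crp call was also lost without untreated array 1 (0.0661) and without male day 5 array 1 (0.0541).

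**Figure D4:**
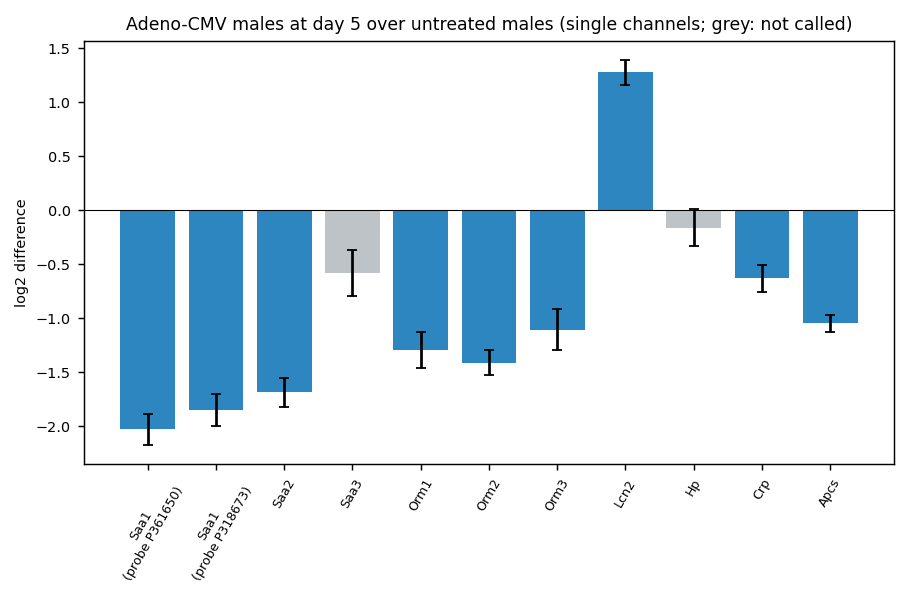
Log2 difference of Adeno-CMV males at day 5 over untreated males for the 11 probes, from single channels of 1 slide, with standard errors as bars. Blue columns were called by limma and grey ones were not. The Saa1, Saa2, orosomucoid, Crp and Apcs probes were lower, from −2.03 to −0.63, and Lcn2 was higher at 1.28.

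A list of 15 genes held inducers of the acute-phase genes, the receptors of these inducers and the receptor antagonist Il1rn, and 14 of the 15 were measured. With Adeno-Cux2, 2 were called higher and 1 lower in day 5 females, 6 higher and 1 lower in day 5 males, and 7 higher and 2 lower in day 3 males, with medians of 0.11, 0.30 and 0.27. These were 14.3% and 7.14%, 42.9% and 7.14%, and 50% and 14.3% of the 14, beside 11.2% and 6.20%, 12.0% and 4.78%, and 22.8% and 20.1% of all probes, so that the lower calls at male day 3 were below the share of all probes. Il1rn, the interleukin-1 receptor antagonist, was higher at male day 5 (1.65 ± 0.18) and male day 3 (3.00 ± 0.18), and Osmr, the oncostatin M receptor, at 1.00 and 1.76. Il1rap, the accessory chain of the interleukin-1 receptor, was lower in all 3, at −1.63 in females at day 5, −1.31 in males at day 5 and −2.92 in males at day 3. Lifr, the leukaemia inhibitory factor receptor, was lower at male day 3 (−1.73), Il1b was higher at male day 5 (1.22), and in females Il6st, the shared signalling chain of the interleukin-6 family, and Il1a were higher (0.60 and 0.42).

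Of 18 genes of signalling and transcription, 5 were called higher in males at day 5, and 10 higher and 2 lower in males at day 3. These were 27.8% higher at day 5, beside 12.0% of all probes, and 55.6% higher and 11.1% lower at day 3, beside 22.8% and 20.1%. Relb and Nfkb2, subunits of the alternative NF-kB pathway, were higher at day 5 (0.83 and 0.48) and day 3 (1.61 and 0.72) in males, as was Nfkbiz, a nuclear NF-kB cofactor (0.41 and 0.70). Socs3, a feedback inhibitor of STAT3 signalling, was higher in males at day 5 (1.00), and Cebpa, a hepatocyte C/EBP factor, lower at day 3 (−1.24). In the female day 5 comparison none of the 18 was called by limma (1 higher and 2 lower at an unadjusted p under 0.05), with a median of −0.02. The Relb response in females was below that in males at day 5 (−1.04, adjusted p = 0.0418). Between untreated males and females 3 were higher and 3 lower (16.7% each, beside 4.71% and 5.07% of all probes), among them Cebpb and Cebpd lower in males (−0.66 and −0.96) and Socs3 higher (0.94).

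A list of 27 other genes taken as rising in the acute phase, whose rise in mice was not checked here, again held Il1rn. Of the 27, 6 were called higher and 6 lower in day 5 females. In males 12 were higher and 4 lower at day 5, and 10 higher and 4 lower at day 3. The shares were 22.2% and 22.2% in day 5 females (11.2% and 6.20% of all probes), 44.4% and 14.8% in day 5 males (12.0% and 4.78%), and 37.0% and 14.8% in day 3 males (22.8% and 20.1%). Cd14, a receptor for bacterial lipopolysaccharide, was higher in males at day 5 (1.73) and day 3 (2.80), and A2m, a broad protease inhibitor, likewise (1.24 and 2.16). Serpina3k, a serine protease inhibitor, was lower at male day 3 (−1.83). Vnn1, a pantetheinase, was lower at day 5 in females (−1.27) and males (−1.96). The metallothioneins Mt1 and Mt2, which bind zinc and copper, were lower in the female pools labelled Adeno-Cux2 (−0.75 and −1.14) and in untreated males (−1.61 and −2.04). In untreated mice 10 of the 27 were called lower in males (37.0%, beside 5.07% of all probes), including Hamp2, a hepcidin gene (−2.99), and Fgl1, a fibrinogen-like protein (−1.83), the opposite direction to Saa1 and Saa2.

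A list of 14 genes was taken as falling in the acute phase, and their fall in mice was not checked here. Of the 14, 5 were called higher in females at day 5, 6 higher in males at day 5, and 2 higher and 8 lower in males at day 3. The medians were 0.30, 0.17 and −0.33 in that order. The higher calls were 35.7%, 42.9% and 14.3% of the 14, beside 11.2%, 12.0% and 22.8% of all probes, and the lower calls at male day 3 were 57.1%, beside 20.1%. Apoa2, an apolipoprotein of high-density lipoprotein, was lower at male day 3 (−1.77), with Fetub, a fetuin (−1.44), Apoh, a phospholipid-binding plasma protein (−1.20), and Itih1, a hyaluronan-binding inhibitor chain (−0.91). Serpina6, the corticosteroid-binding globulin, was higher at day 5 in females (1.40) and males (1.98), with Ahsg, another fetuin (1.06 and 0.96). The male day 5 minus day 3 contrast called 9 of the 14 higher (7.25% of all probes were), the direction also taken by Crp and Apcs.

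The mean log2 ratio of the 10 genes was −0.04 and −0.09 in day 5 females, 0.50 and 0.57 in day 5 males, 0.53 and 0.12 in day 3 males and −0.20 and −0.40 in untreated mice. Of 10920 other genes called in a virus comparison, those with the most similar pattern over the 8 arrays were a transcript without a gene name (Pearson r = 0.977), Ctsw (0.972), a protease of cytotoxic lymphocytes, Cd83 (0.964), a surface protein of activated immune cells, Trim68 (0.961), a ubiquitin ligase, and Hmox1 (0.960), the enzyme that degrades haem. These r values are a description over 8 arrays that come in pairs of 1 comparison, and the mean of the members is itself led by Lcn2 and Saa3.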

How the data were processed

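Liver RNA pools were measured on 8 Agilent mouse 4x44k v1 arrays with 2 dyes. The scanner files came from Feature Extraction 9.5.3.1 (untreated and male day 5) and 10.7.1.1 (the others), on mm8, per the file headers. The intensity values deposited are median spot and local background brightness, not normalized. The deposited LogRatio is a log10 ratio of red over green after the software's background and dye steps, per the file headers. A deposited table of the whole series repeats these log10 ratios, with the sign turned on array 2, within 5e-06. The deposited spot flags are 0 or 1, per the file headers.

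From these, background was corrected by normexp (offset 50) and log2 ratios normalized by loess in limma 3.58.1 with R 4.3.3. Control spots (1639) were left out, and 43379 others covered 41174 probes. The filter asked for a signal well above background in either channel on each of the 2 arrays of some comparison, leaving 33335. Of all probes, 24367 were named by accession, 6307 by symbol and 2425 by synonym in RefSeq (GRCm38.p6), and 8075 kept the array's name. One fit to all 8 arrays had a coefficient per comparison and a dye term (3 residual and 3.90 prior degrees of freedom). Tests were two-sided, adjusted by Benjamini and Hochberg. Channel signals were scaled by Aquantile and fitted by lmscFit with an intraspot correlation of 0.498, which the fits leaving out an array reused.

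The members and all gene lists were chosen with earlier results of these data known. All member probes are named. Of each other list up to 4 called genes with the largest ratio per comparison are named by the probe brightest for the gene, as examples. In simulated data on 33335 probes, with 50 changed at each of 4 sizes in the male day 5 comparison, 100% were recovered at each size (log2 of −2, −1, 1 and 2), with 20 false calls. Smaller changes were not covered, so this recovery does not speak for the member calls with ratios between −1 and 1. The replicate number is the dye orientation, so the dye term is the replicate block. Differences between same-numbered arrays correlated at −0.0725 to 0.296 across probes, so the numbers were not taken to pair mice. Alternatives changed the background step, normalization, probe filter, dye term, variance prior and arrays used.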

Additional observations from a re-analysis of the deposited data

Results flagged for a closer look

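The response to the virus differed between groups by a test of the difference itself for 6 values. In females minus males at day 5 the Orm3 response was lower by 1.65 on the log2 scale (a value of −1.65, with −1.21 in females and 0.45 in males), so that its sign differed between the sexes. The Lcn2 difference was −1.58, with 0.66 in females and 2.25 in males. In the male response at day 5 minus that at day 3, Saa3 differed by −1.42 (1.17 at day 5 and 2.59 at day 3) and Orm3 by 1.13 (0.45 at day 5 and −0.69 at day 3). Crp differed by 1.35 (−0.50 at day 5 and −1.86 at day 3) and Apcs by 1.01 (−0.05 at day 5 and −1.06 at day 3). In all 6 cases the 2 responses lay on different slides, from which they cannot be told apart.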

How the results depend on the processing

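No value of a probe changed sign while called. Counts over all probes also moved, and are given beside the member counts as shares of 33335. With the software's own log ratios, by limma, 0 of the 11 probes were higher in untreated males (4 at an unadjusted p under 0.05), where 2.08% of all probes were. In that setting 1 was higher in females at day 5 (6.28% of all) and 0 lower in males at day 5 (1 unadjusted, 4.10% of all). It called 0 lower in females minus males, where 0 of all probes passed, so that the count of members could not be above 0 (6 members and 1674 probes at an unadjusted p), and 0 lower in day 5 minus day 3 (1 unadjusted, 0.561% of all, against 4.81%). Without background subtraction 1 was higher in females at day 5 (9.05% of all), and 0 lower in females minus males by limma (5 unadjusted), where 1 of all probes was lower. With median centring 2 were higher in males at day 5 (8.72% of all) and 1 in females (7.84%). On its own arrays the untreated comparison had 0 higher by limma (4 unadjusted, 0.852% of all) and male day 5 had 8 (16.9% of all, against 12.0%). Leaving out each of the 8 arrays gave 0 to 4 higher in untreated males, 1 to 6 higher and 0 to 1 lower in males at day 5, 1 to 2 higher and 1 to 2 lower in females, 3 to 6 higher in males at day 3, 0 to 2 lower in females minus males, and 0 to 3 higher and 0 to 1 lower in day 5 minus day 3. Over all probes the same fits gave 385 to 2375 higher in untreated males, 1125 to 4623 higher and 201 to 2250 lower in males at day 5, 1133 to 4406 and 503 to 2795 in females, 4313 to 8368 higher in males at day 3, 0 to 72 lower in females minus males, and 106 to 3240 and 29 to 2206 in day 5 minus day 3. At male day 5 the Saa1 probe A_52_P318673 (0.38, adjusted p = 0.0527) passed the threshold under 5 alternatives, and Saa2 on its own arrays (0.0484). With no replicate block, that is no dye term, 5 probes were higher in males at both times, in place of 4 at day 5 and 6 at day 3, and the Hp call was lost (0.234). Over all probes, median centring gave male day 3 8793 higher and 3906 lower, against 7615 and 6696, and day 5 minus day 3 961 and 1875, against 2416 and 1602. With 2 arrays per comparison and 1 slide per pair of comparisons, small ratios rest on the shared spread.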
